A study of Mus musculus with 12 samples.

Results

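Clustered histone genes are the copies of the H1, H2A, H2B, H3 and H4 genes that lie together in the mouse histone gene clusters and whose symbols begin with Hist1h, Hist2h, Hist3h or Hist4h. Members were all rows of the deposited gene table with such a symbol. There were 71 of them among 37583 rows, with 6 H1, 20 H2A, 19 H2B, 13 H3 and 13 H4 rows. They carried 70 distinct symbols, since Hist2h3c1 appeared under 2 identifiers, and 1 of them, Hist3h2bb-ps, is a pseudogene by its name. The GENCODE M21 annotation also types Hist1h2aj and Hist1h2al as pseudogenes. It matches Hist2h2bb and 1 row of Hist2h3c1 to transcripts with no coding sequence. Total RNA was sequenced from wild-type mouse blood taken after a burn combined with tenotomy, the cutting of a tendon. The blood had been enriched on the iChip, a microfluidic sorting device, and what was sequenced is labelled cMPCs, short for circulating mesenchymal progenitor cells, together with blood cells. The 12 libraries form 3 groups of 4, taken 6 h (6h), 1 day (Day1) and 7 days (Day7) after injury, and all carry the same injury and genotype. Strain, age and whether replicates came from separate animals are not given in the labels, so a p-value here reflects only library-to-library spread, which may be technical.

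Histone proteins package DNA. H2A, H2B, H3 and H4 form the core of the nucleosome, and H1 binds the DNA that enters and leaves it. Most clustered histone genes are transcribed during S phase and give messages that end in a conserved stem-loop instead of a poly(A) tail, so libraries primed on poly(A) see little of them while total RNA can capture them. Some clustered genes are also known to give polyadenylated messages that run past the stem-loop and are made in cells that do not divide. Platelets and reticulocytes, the last immature stage of red cells, have no nucleus of their own but carry RNA from the nucleated precursors in the bone marrow.

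The 3′ end sequences show how alike the members are and where these messages can end. The histone 3′ stem-loop, searched on the sense strand after the stop codon of GENCODE M21 transcripts, was found in 46 of the 66 members with an annotated coding sequence and lay 24 to 61 bases after that sequence. Only 8 distinct versions of its 16 bases occurred, and the commonest was shared by 26 members. All 12 H4 genes with a stem-loop opened it with GGCCC or GGTCC, and all 34 stem-loops of the other types opened with GGCTC. Stem-loops of 7 members whose values are described below are printed here 5′ to 3′, with the stem-loop in capitals and the flanking bases in lower case.
Hist1h1c: ccaaaaGGCTCTTTTCAGAGCCaccac
Hist1h1d: tcaaacGGCTCTTTTCAGAGCCaccca
Hist1h2ac: cccaaaGGCTCTTTTCAGAGCCcccac
Hist1h3d: cccaaaGGCTCTTTTCAGAGCCacccc
Hist1h4i: cttaaaGGCCCTTTTTAGGGCCaccac
Hist1h4h: accaaaGGCCCTTTTCAGGGCCgccca
Hist1h4d: accaaaGGCCCTTTTCAGGGCCactac

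In the longest annotated transcript, sequence continued for 840 bases past the stem-loop in Hist1h1c, 2010 in Hist1h2ac, 4884 in Hist1h1d, 752 in Hist1h3d, 330 in Hist1h4i, 770 in Hist1h4d and 46 in Hist1h4h. The annotated Hist1h2bc transcript held no match to the stem-loop. Among the members that passed the filter on low values the median continuation was 415.5 bases (22 with a stem-loop, 3 to 4884), and among the rest it was 38.5 bases (24 with a stem-loop, 3 to 1214). Whether the reads come from the short or the long form cannot be read from counts per gene and was not tested.

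Upstream sequences are shown for 3 members that carry the main results. RefSeq promoter windows (GRCm38.p6, 250 bases before to 50 after the annotated start) were at hand for 61 members. CCAAT, read on either strand, was in 85.5% of the 62 member windows, against 37.4% of all 32851 windows. At least 2 copies were in 70.97% of member windows, against 11.7% of all windows. TATAA, read on the strand of the gene, was in 66.1% of member windows, against 17.5% of all. CCAAT, its reverse complement ATTGG and TATAA can share bases, and a match describes the letters only. Windows of neighbouring members can cover the same bases, as in Hist1h2ba and Hist1h2aa, so the 62 member windows are not all separate observations. The windows below run 5′ to 3′ on the strand of the gene with those letters in capitals. The Hist1h1c window lies at chr13:23738557-23738856 (plus strand), Hist1h2ac at chr13:23683910-23684209 (minus strand) and Hist1h4h at chr13:23530794-23531093 (plus strand).
Hist1h1c: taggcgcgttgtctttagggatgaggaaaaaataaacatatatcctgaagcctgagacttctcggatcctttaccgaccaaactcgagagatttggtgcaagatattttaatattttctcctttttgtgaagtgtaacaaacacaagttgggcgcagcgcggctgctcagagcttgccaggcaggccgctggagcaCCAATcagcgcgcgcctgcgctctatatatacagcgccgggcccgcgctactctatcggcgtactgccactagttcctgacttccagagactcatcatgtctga
Hist1h2ac: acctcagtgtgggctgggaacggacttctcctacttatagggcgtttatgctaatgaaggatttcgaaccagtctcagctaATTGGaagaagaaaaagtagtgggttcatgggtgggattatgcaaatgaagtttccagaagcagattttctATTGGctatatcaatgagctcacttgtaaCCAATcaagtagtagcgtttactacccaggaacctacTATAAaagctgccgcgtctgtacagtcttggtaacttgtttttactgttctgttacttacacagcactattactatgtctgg
Hist1h4h: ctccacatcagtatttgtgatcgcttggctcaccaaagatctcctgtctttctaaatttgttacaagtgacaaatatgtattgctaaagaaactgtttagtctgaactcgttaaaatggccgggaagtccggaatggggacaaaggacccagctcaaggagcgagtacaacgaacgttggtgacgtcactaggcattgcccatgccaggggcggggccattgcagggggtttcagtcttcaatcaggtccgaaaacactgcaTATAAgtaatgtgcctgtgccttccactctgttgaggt

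The Hist1h2ac window also spans nearly the whole gap to its neighbour, since the starts of Hist1h2ac and Hist1h2bc lie 251 bases apart and face away from each other. It held 3 CCAAT letters and 1 TATAA. The Hist1h1c window held 1 CCAAT and no TATAA, and the Hist1h4h window held no CCAAT and 1 TATAA. Members formed 14 such head-to-head pairs of an H2A with an H2B gene, 12 on chromosome 13 and 1 each on chromosomes 3 and 11. The pseudogenes Hist1h2aj and Hist3h2bb-ps are each in 1 of these pairs.

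Clustered histones took 202185 of all reads, and 2 genes dominated them. Hist1h2bc, which encodes an H2B, had 95085 reads (47.0%), and Hist1h1c, which encodes the linker histone H1.2, had 78022 (38.6%). The 10 members with most reads held 95.8%. By type, H2B genes took 49.0% of the histone reads, H1 genes 41.8%, H2A genes 4.62%, H4 genes 4.02% and H3 genes 0.551%. Library depth ran from 5098395 to 12379041 reads, and haemoglobin genes took 16.1% to 70.3% of them. The histone share of all reads ran from 0.0150% (Wilson 95% interval 0.0140 to 0.0161, counting error only) in 6h replicate 3 to 0.415% (0.411 to 0.418) in 6h replicate 4. Day1 libraries held 0.0583% to 0.297% and Day7 libraries 0.0610% to 0.387%, so the 3 groups overlapped. The library 6h replicate 4 stood apart from the other 6h libraries in many members, and the values of the 5 members whose calls change without it are given both ways. That library was singled out from these same values, so an adjusted p without it shows sensitivity and is no call. The share of all genes that passed without it is not given here.

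Values below are the deposited values, which are reads multiplied by 1 factor per library in a scaling step that is not described, and levels of different genes are compared per kilobase of the gene length listed in the table. Per kilobase, the mean deposited value over 12 libraries was 1117 for Hist1h2bc and 493 for Hist1h1c. The next were Hist1h4i at 48.9, Hist1h4h at 35.8, Hist1h1b at 25.2, Hist1h4c at 18.6, Hist1h1e at 16.9, Hist1h2ac at 16.0, Hist3h2ba at 13.4 and Hist3h2a at 10.9. Reads were present in every library for 14 members. At the other end, 7 rows had no read in any library, namely Hist1h2aj, Hist1h2br, Hist2h2aa1, Hist2h2aa2, Hist2h3b and both rows of Hist2h3c1, which allows at most 3 reads per library.

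The test was limma on log2(value + 1) with p-values adjusted by Benjamini-Hochberg over the 11211 genes in which 4 or more libraries reached a value of 1. It included 28 members (5 H1, 5 H2A, 8 H2B, 3 H3 and 7 H4). The other 43 rows comprised 36 with few reads, at most 140 each over all libraries, and the 7 with none, and together they held 0.599% of the histone reads. A member could pass the filter through the libraries in which it was high, so the counts that follow describe the members tested and not all members.

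Between Day1 and Day7, 1 of 28 members tested changed (3.57%), and 5.78% of all genes did. Hist1h1c rose and no member fell, where 2.19% of all genes rose and 3.59% fell. Between 6h and Day1 no member changed, and 0.169% of all genes did, every one of them higher at Day1 (0% were lower). Between 6h and Day7 no member changed, and 0.883% of all genes did (0.607% higher and 0.277% lower at Day7). In the F test for any difference among the 3 times, 0 of 28 members passed, against 2.55% of all genes. At an unadjusted p under 0.05 from the same F test, 8 members (28.6%) and 25.5% of all genes passed. These member shares lie near the background. For Day1 over 6h and for Day7 over 6h, edgeR and DESeq2 also called 0 members. For Day7 over Day1, edgeR called 0 members and DESeq2 called 3. The share of all genes that these methods called is not given here, so their counts describe the members only.

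**Figure D1:**
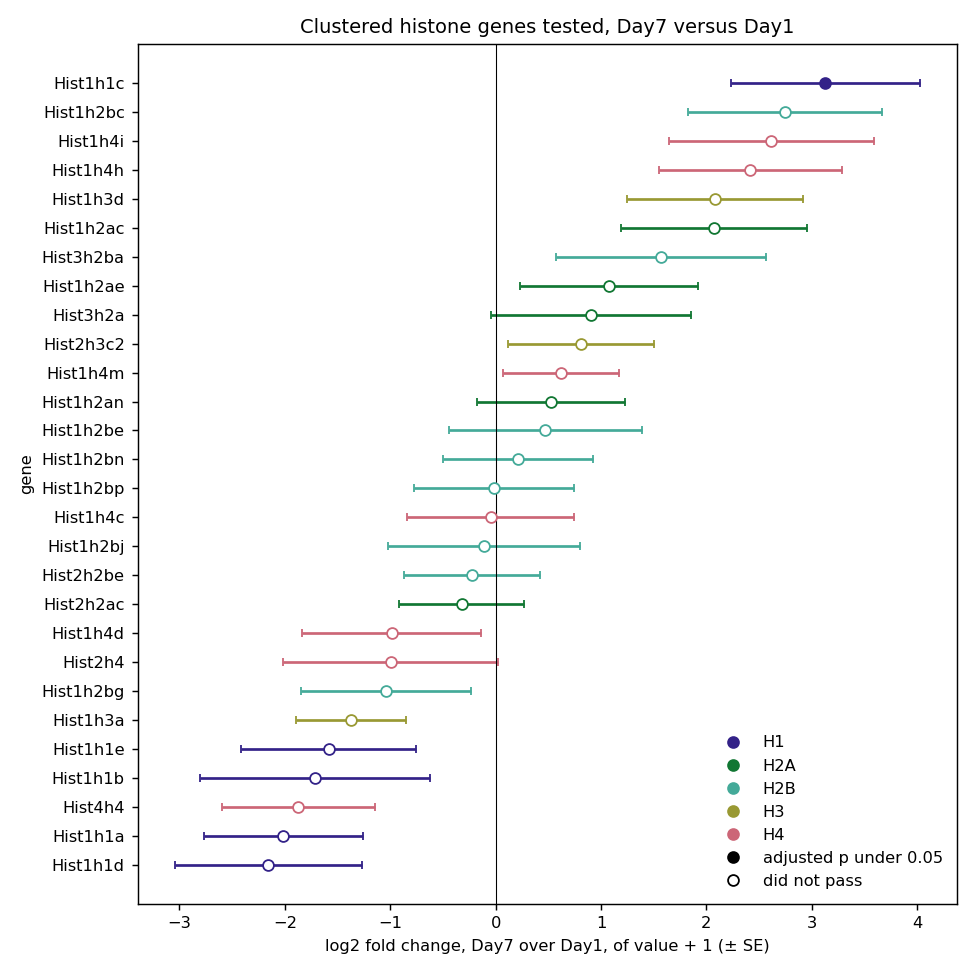
Log2 fold change of each of the 28 members tested, Day7 over Day1, with its standard error, coloured by histone type. The filled point is Hist1h1c at 3.13, which passed at an adjusted p under 0.05, and the H1 genes Hist1h1a and Hist1h1d lie at the opposite end at -2.02 and -2.16. Scaled to all reads, these 3 lie at 0.96, -3.41 and -4.09.

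At an unadjusted p under 0.05, 6 members (21.4%) were higher and 4 (14.3%) lower at Day7 than at Day1, against 11.1% and 18% of all genes. On the deposited scale, all Day7 libraries lay above all Day1 libraries in 6 members (21.4%), against 8.47% of all genes. They lay below them in 2 members (7.14%), against 14.5% of all genes. For Day7 and 6h, 5 members (17.9%) were higher at an unadjusted p under 0.05, against 12.1% of all genes, and 0 were lower, against 5.9%. Of these groups, 1 member (3.57%) did not overlap upward, against 3.45% of all genes, and 0 downward, against 2.38%. For Day1 and 6h, 3 members (10.7%) were higher at an unadjusted p under 0.05, against 9.77% of all genes, and 0 were lower, against 1.39%. All Day1 libraries lay above all 6h libraries in 3 members (10.7%), against 5.52% of all genes, and below them in 0, against 0.883%. The median log2 fold change of the 28 members was 0.10 for Day7 over Day1, 0.40 for Day7 over 6h and 0.46 for Day1 over 6h. Over all genes tested these medians were -0.48, 0.13 and 0.52. With values scaled to all reads, the members had -1.41, -0.06 and 1.42, and all genes had -1.77, -0.20 and 1.57. The 28 members pointed both ways between Day1 and Day7, with 14 fold changes above 0.

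**Figure D2:**
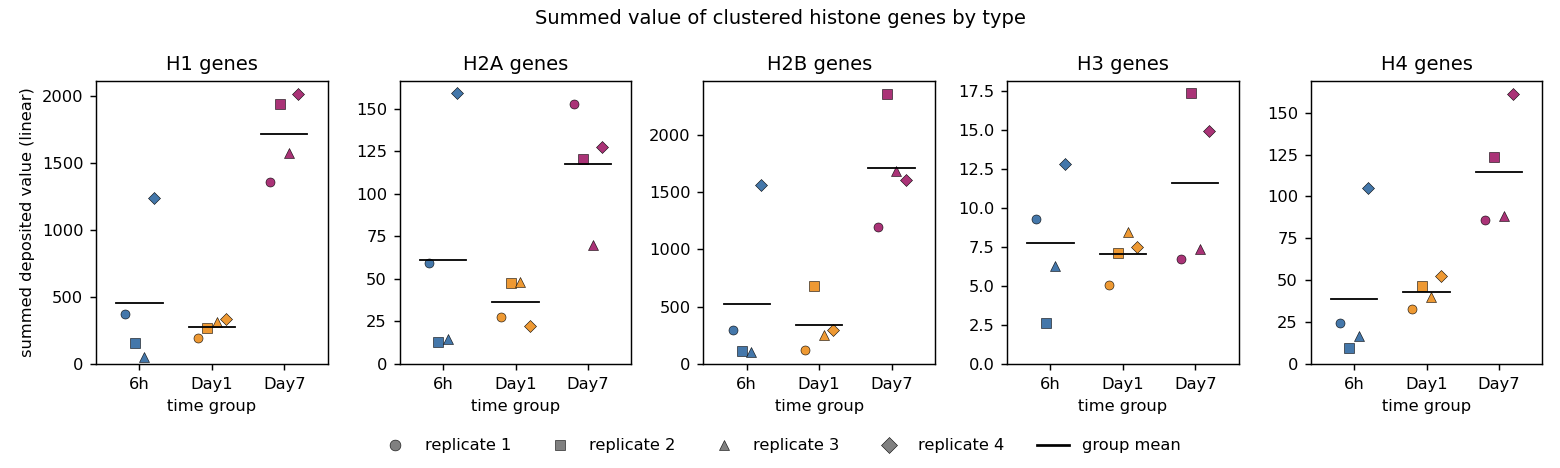
Summed deposited value of all members of each histone type in every library, with 1 panel per type, points for libraries and a bar for the group mean of 4. In the H1 and H2B panels the Day7 libraries (1355 to 2012 and 1194 to 2357) sit above the Day1 libraries (193 to 337 and 120.3 to 678), and 6h replicate 4 (1236 and 1565) sits far above the other 6h libraries.

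Summed over all 71 rows, the deposited value was 762, 300, 195 and 3078 in 6h replicates 1 to 4. It was 379, 1045, 659 and 716 at Day1. It was 2794, 4555, 3423 and 3917 at Day7. Day7 lay above Day1 in every library, and 6h spanned both. The ratio of group means was 2.39 on the log2 scale for Day7 over Day1, 1.76 for Day7 over 6h and -0.63 for Day1 over 6h, with no test because 2 genes make up most of the sum. Without 6h replicate 4 the last 2 were 3.13 and 0.74, so the direction between Day1 and 6h rests on that library. Scaled to all reads the 3 ratios were 0.37, 0.74 and 0.37. In bulk RNA, more cells of a type and more RNA per cell cannot be told apart.

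By type, the log2 ratio of summed means for Day7 over Day1 was 2.63 for H1, 2.35 for H2B, 1.69 for H2A, 1.42 for H4 and 0.72 for H3. Scaled to all reads, these ratios were 0.68, 0.23, 0.07, -0.58 and -1.27, so the sums of H4 and H3 turned round, as they did when scaled to reads outside haemoglobin (-0.31 and -0.98). The share of histone reads held by H3 genes was 0.216% to 0.382% in the Day7 libraries, against 0.679% to 1.34% at Day1. H4 genes held 2.58% to 4.12% at Day7, against 4.47% to 8.68% at Day1. Those shares do not depend on the scaling between libraries, and Day7 and Day1 did not overlap in either. They do depend on Hist1h2bc and Hist1h1c, which hold 85.6% of all histone reads. A rise of those 2 genes lowers the share of every other type, so a lower share is not by itself a fall. At 6h, H3 genes held 0.417% to 3.23% and H4 genes 3.21% to 8.56%.

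Hist1h1c was 264, 142, 40.3 and 1222 in 6h replicates 1 to 4. It was 104, 242, 203 and 252 at Day1. It was 1351, 1925, 1554 and 1915 at Day7. On the deposited scale every Day7 library lay above every 6h and Day1 library, and 6h replicate 4 was the only other library near them. The mean was 1686 ± 283 at Day7 and 200.4 ± 67.4 at Day1 (SD, n = 4 each). The log2 fold change was 3.13 ± 0.90 (SE, limma adjusted p = 0.0438), which is the only pairwise call among the members. Day7 over 6h gave 3.00 ± 0.90 (limma adjusted p = 0.0881), or 3.84 without 6h replicate 4 (adjusted p = 0.00421), and Day1 over 6h gave -0.13 ± 0.90. The call did not hold without any of the Day1 libraries (adjusted p 0.0830 to 0.0993) or without Day7 replicate 2, 3 or 4 (0.0765 to 0.0984). Scaled to all reads the fold change was 0.96 (limma adjusted p = 0.464).

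The other H1 genes did not share this pattern. Hist1h1a encodes H1.1, Hist1h1d H1.3, Hist1h1e H1.4 and Hist1h1b H1.5, all of them replication-dependent linker histones. Hist1h1a was 1.49, 1.14, 0.241 and 0.180 at 6h, 4.82, 1.70, 10.5 and 13.97 at Day1, and 0.206, 0.191, 0.617 and 3.33 at Day7. Its Day1 libraries all lay above its 6h libraries, while Day7 replicate 4 lay inside the Day1 range. The log2 fold change was -2.02 ± 0.75 for Day7 over Day1 (limma adjusted p = 0.0882) and 2.11 ± 0.75 for Day1 over 6h (limma adjusted p = 0.324). Scaled to all reads, both passed, at -3.41 (adjusted p = 0.00547) and 3.23 (adjusted p = 0.0232), on a scale where 35.1% of all genes fell at Day7 over Day1 and 10.7% rose at Day1 over 6h.

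Hist1h1d was 21.3, 1.89, 2.17 and 5.22 at 6h, 34.2, 9.36, 39.6 and 27.2 at Day1, and 1.10, 3.06, 5.55 and 18.0 at Day7. The group means put Day1 at the top, and Day1 replicate 2 overlapped the other groups. Day7 over Day1 gave -2.16 ± 0.89 (limma adjusted p = 0.114). Hist1h1e averaged 10.6 ± 9.59 at 6h, 21.1 ± 10.7 at Day1 and 6.16 ± 3.57 at Day7 (SD, n = 4 each), with a Day7 over Day1 fold change of -1.58 that missed the threshold (limma adjusted p = 0.206). Hist1h1b was above 10 in 6h replicate 1 (59.2), in Day1 replicates 1, 3 and 4 (22.4, 37.8 and 13.97) and in Day7 replicate 4 (66.8), and between 0 and 6.22 in the other 7 libraries. So on the deposited scale 1 H1 gene was high in all Day7 libraries. The highest levels of the other 4 fell in other or single libraries. As a share of all reads, Hist1h1c was lower in Day7 replicate 3 (2519 of 9096780) than in Day1 replicate 2 (7706 of 11209057). Hist1h1t, the testis linker histone, had 1 read in all.

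**Figure D3:**
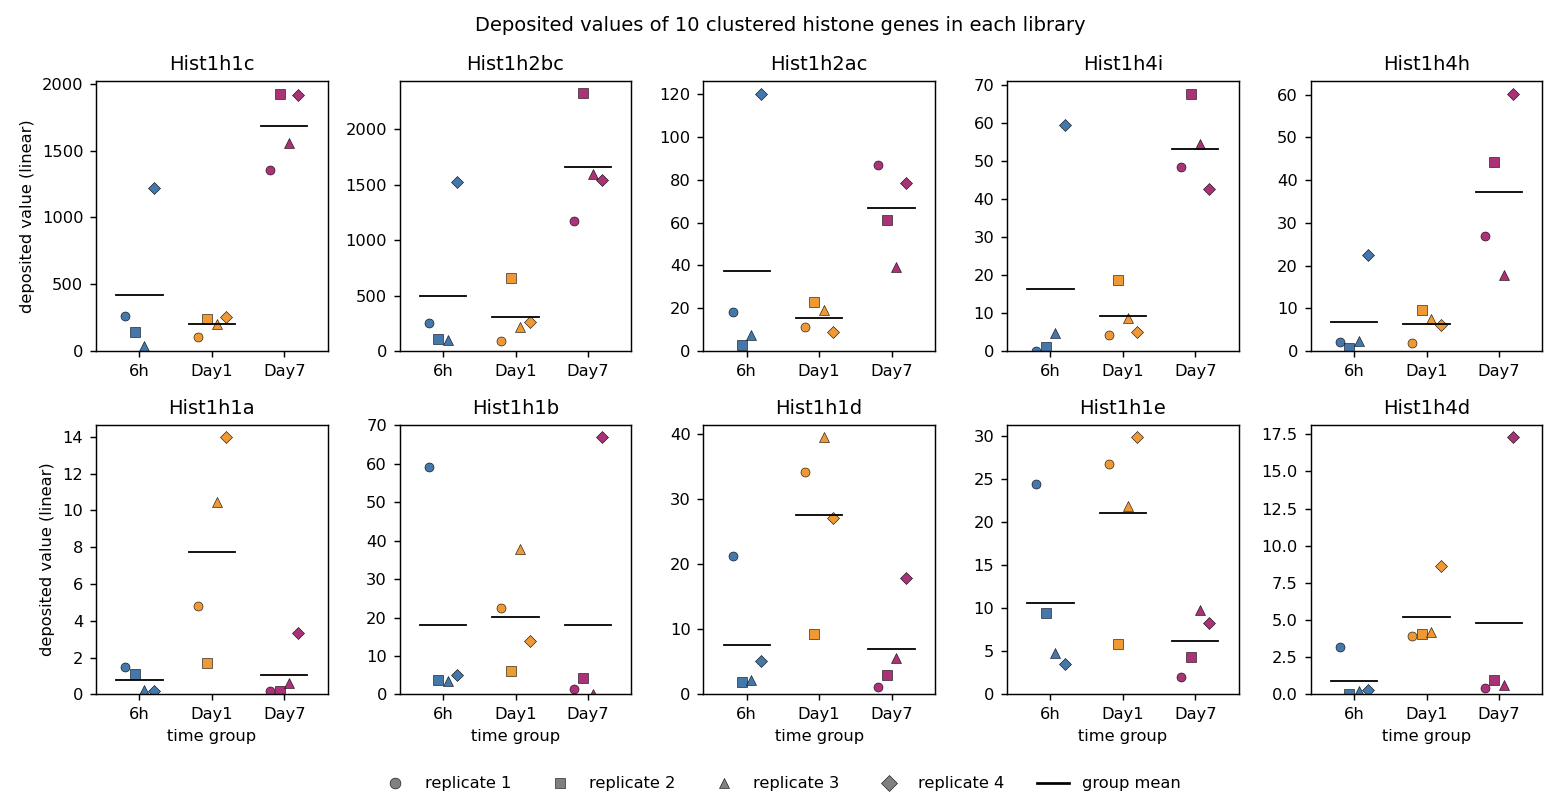
Deposited values of 10 members in every library, with linear axes, 1 panel per gene, shapes for replicate numbers and a bar for the group mean of 4. In the upper row the 5 highest libraries are the 4 Day7 libraries and 6h replicate 4, while in the lower row high points lie mostly at Day1 and in 6h replicate 1 or Day7 replicate 4.

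Hist1h2bc, an H2B gene, was 256, 105, 96.6 and 1524 at 6h, 88.5, 656, 213 and 264 at Day1, and 1172, 2323, 1598 and 1543 at Day7. On the deposited scale Day7 and Day1 did not overlap, and 6h replicate 4 lay within the Day7 range. As a share of all reads they did overlap, with 2591 of 9096780 in Day7 replicate 3 and 20897 of 11209057 in Day1 replicate 2. Its mean was 1659 ± 482 at Day7 and 306 ± 245 at Day1 (SD, n = 4 each). The log2 fold change of 2.74 ± 0.92 missed the threshold (limma adjusted p = 0.0652), and without 6h replicate 4 it passed (adjusted p = 0.0275). Day7 over 6h gave 2.68 ± 0.92 (limma adjusted p = 0.128), or 3.54 without 6h replicate 4 (adjusted p = 0.00895). The Hist1h2bc value divided by the Hist1h1c value gave 0.736 to 2.40 in 6h libraries, 0.847 to 2.71 in Day1 libraries and 0.806 to 1.21 in Day7 libraries. It exceeded 2 in 6h replicate 3 and Day1 replicate 2 only.

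The other H2B members were far lower and went their own ways. Hist1h2be and Hist1h2bg encode the same H2B protein as Hist1h2bc. Hist1h2be averaged 9.29 ± 12.2 at 6h, 8.96 ± 2.06 at Day1 and 13.7 ± 5.76 at Day7 (SD, n = 4 each), and it overlaps Hist1h1e in the GENCODE annotation, so their reads are uncertain. Hist1h2bg was 2.99, 1.51, 0.724 and 3.597 at 6h, 9.52, 3.80, 10.5 and 5.02 at Day1, and 2.89, 3.06, 0.617 and 6.65 at Day7. Its Day1 libraries all lay above its 6h libraries, with a log2 fold change of 1.36 ± 0.81 for Day1 over 6h (limma adjusted p = 0.531). Hist3h2ba reached 62.3 in Day7 replicate 3 and lay between 0.206 and 12.3 elsewhere. Hist1h2bj reached 16.7 in the same library and lay between 0.599 and 9.71 elsewhere. Hist1h2bp, Hist1h2bn and Hist2h2be stayed under 10 in all libraries.

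Hist1h2ac, the H2A gene next to Hist1h2bc, was 18.3, 3.03, 7.48 and 120.3 at 6h, 11.2, 22.8, 19.0 and 8.68 at Day1, and 87.1, 61.4, 39.5 and 78.5 at Day7. Day7 and Day1 did not overlap, and the highest value of all was in 6h replicate 4. Day7 over Day1 gave a log2 fold change of 2.07 ± 0.88 (limma adjusted p = 0.122), which became -0.0024 when scaled to all reads. Day7 over 6h gave 1.95 ± 0.88 (limma adjusted p = 0.245), or 2.90 without 6h replicate 4 (adjusted p = 0.0264). Per kilobase, Hist1h2ac stood at 0.00731 to 0.0376 of the Hist1h2bc level across the 12 libraries, so the head-to-head neighbours differed in level by a wide margin in each. Hist3h2a was 28.0, 3.03, 3.86 and 30.6 at 6h, 8.53, 17.5, 21.5 and 5.76 at Day1, and 61.4, 47.5, 2.47 and 30.6 at Day7. Its groups overlapped, and Day7 replicate 3 was the lowest of all 12. Hist1h2ae averaged 7.96 ± 5.31 at Day7, against 2.87 ± 1.11 at Day1 (SD, n = 4 each), with overlapping groups. Hist1h2an and Hist2h2ac did not exceed 4.93 in any library.

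H4 genes encode 1 identical protein, and the 13 rows could be compared as copies of it. Hist1h4i was 0, 1.14, 4.83 and 59.4 at 6h, 4.08, 18.6, 8.72 and 4.98 at Day1, and 48.4, 67.6, 54.3 and 42.6 at Day7. Hist1h4h was 2.05, 0.757, 2.41 and 22.4 at 6h, 1.85, 9.48, 7.43 and 6.07 at Day1, and 26.9, 44.2, 17.9 and 60.2 at Day7. On the deposited scale, both genes had all Day7 libraries above all Day1 libraries and 6h replicate 4 near Day7. For Day7 over Day1 the log2 fold change was 2.62 ± 0.97 for Hist1h4i (limma adjusted p = 0.0875) and 2.42 ± 0.87 for Hist1h4h (limma adjusted p = 0.0792). For Day7 over 6h it was 3.35 ± 0.97 for Hist1h4i (limma adjusted p = 0.0787) and 2.93 ± 0.87 for Hist1h4h (limma adjusted p = 0.0852). None of the 4 passed with all libraries, and all 4 passed without 6h replicate 4 (adjusted p 0.0375, 0.0468, 0.00241 and 0.00748 in that order). That library was singled out because these members stood apart in it, so this is no test of them. Without that library, Day7 over 6h gave 4.53 for Hist1h4i and 3.72 for Hist1h4h.

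Other H4 copies showed other patterns. Hist1h4d was 3.17, 0, 0.241 and 0.300 at 6h, 3.95, 4.08, 4.17 and 8.64 at Day1, and 0.413, 0.957, 0.617 and 17.3 at Day7. All Day1 libraries lay above all 6h libraries, and 1 Day7 library lay above everything. Hist4h4, the only row with a Hist4h symbol, was 6.35, 0, 1.21 and 1.20 at 6h, 5.56, 2.17, 4.10 and 4.79 at Day1, and 0.138, 0, 0 and 2.00 at Day7. All its Day7 libraries lay below all its Day1 libraries, with a log2 fold change of -1.87 ± 0.73 (limma adjusted p = 0.0972). Hist1h4c averaged 5.61 ± 3.23 at 6h, 8.17 ± 3.77 at Day1 and 8.16 ± 4.50 at Day7 (SD, n = 4 each), and its fold change of -0.05 ± 0.79 for Day7 over Day1 was the nearest to 0 among the H4 genes. Hist2h4 had no read in 6h replicate 2 and Day7 replicate 2 and reached 22.9 in Day7 replicate 4. Hist1h4m stayed at or below 2.34.

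H3 genes were the scarcest type. Hist1h3d was 0.187, 1.89, 3.14 and 6.59 at 6h, 1.36, 3.39, 0 and 1.01 at Day1, and 3.65, 11.7, 7.40 and 12.6 at Day7. On the deposited scale, Day7 lay above Day1 in every library, with a log2 fold change of 2.08 ± 0.83 (limma adjusted p = 0.106). Hist1h3a was not seen at Day7 (0 reads), against 146 reads at Day1 and 26 at 6h. Against a floor of 3 reads over the Day7 group it was at least 15.1-fold lower at Day7 than at Day1. The limma difference on log2(value + 1), which is no bound for such a gene, was -1.37 ± 0.52 (adjusted p = 0.0918). Hist2h3c2 lay between 0 and 7.09 with overlapping groups. Hist1h3e, the next by mean value, was not tested and reached 3.03 in Day1 replicate 3.

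The same 5 libraries led several of these genes. In Hist1h1c, Hist1h2ac, Hist1h2bc, Hist1h3d, Hist1h4h and Hist1h4i, the 5 highest libraries were the 4 Day7 libraries and 6h replicate 4. These 6 were 21.4% of the members tested, and 516 of 11211 genes (4.60%) had the same top 5. The pattern was noticed in the values and counted afterwards, so it carries no test. These are the same 6 members counted above as having all Day7 libraries above all Day1 libraries. This top 5 implies that order, so the counts are not separate observations. Both orders were taken on the deposited scale. As a share of all reads, Hist1h2bc was higher in Day1 replicate 2 (20897 of 11209057) than in Day7 replicate 3 (2591 of 9096780). For that gene neither order held on that scale.

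Markers of platelets and of megakaryocytes, the marrow cells that shed them, were high in the same libraries. All 15 on the list were tested. For Day7 over Day1, 10 rose and 0 fell, with a median log2 fold change of 3.75, and for Day7 over 6h, 6 rose and 0 fell, with a median of 4.27. When scaled to all reads, 1 and 0 rose, with medians of 1.58 and 3.45. Tubb1, a platelet tubulin, rose by 5.21 on the log2 scale at Day7 over Day1, followed by the collagen receptor gene Gp6 (4.30), Treml1 (4.14), the chemokine gene Ppbp (4.06), Clec1b (4.01) and Gp1bb (3.99). At Day7 over 6h, Gp9 (5.35), Gp6 (4.86), Gp1bb (4.65), Gp1ba (4.49), Selp (4.24) and Tubb1 (4.11) rose. Their summed deposited value was 3335, 525, 273 and 32332 at 6h, 1349, 7414, 3780 and 2280 at Day1, and 29840.1, 50332, 35946 and 31020 at Day7. The Day7 libraries and 6h replicate 4 were again the top 5. This was also so for the summed monocyte and macrophage markers and the summed DNA replication genes, so for 3 of the 13 other lists in all. The monocyte and macrophage sum was 1135, 62.9, 188 and 1928 at 6h, 200.5, 497, 288 and 596 at Day1, and 2861, 3211, 1593 and 1571 at Day7. Single genes of these 2 lists did not all follow the sums. For Day7 over Day1, 2 of 8 monocyte and macrophage markers tested had a log2 fold change above 0, with a median of -0.96. In Day7 replicate 3, 7 of 9 of these markers were at 0. In 6h replicate 4, 16 of 29 DNA replication genes were at 0. None of the platelet markers was at 0 in the Day7 libraries and 6h replicate 4, and at 0 elsewhere were only Gp6 in 6h replicate 2 and Gp1ba in 6h replicate 3. The part of platelet or monocyte RNA in the histone values was not tested.

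**Figure D4:**
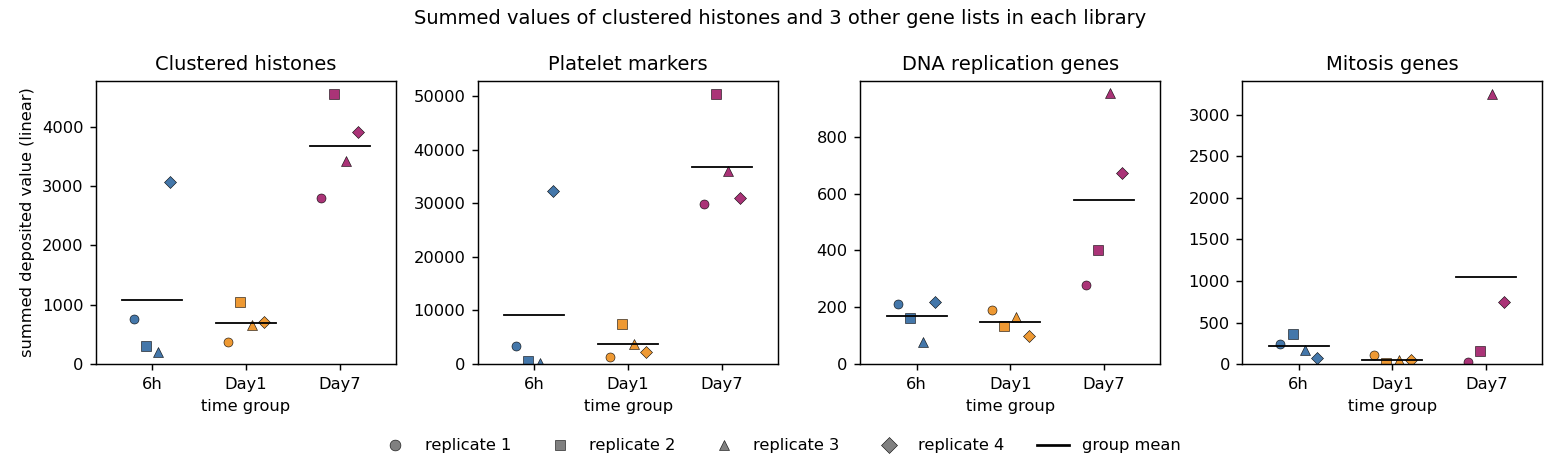
Summed deposited value of the 71 clustered histone rows, 15 platelet and megakaryocyte markers, the DNA replication genes and the mitosis genes in every library, with linear axes and a bar for the group mean of 4. In 6h replicate 4 the sums are 3078 and 32332 in the histone and platelet panels, within the Day7 range of each, 220.1 in the replication panel, below the lowest Day7 library (277), and 77.7 in the mitosis panel, within a Day7 range of 26.8 to 3247.

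Other lists of the pathway gave few calls. DNA replication genes, whose activity marks S phase, had 0 of 27 tested members called in any pairwise comparison. Scaled to all reads, where 35.1% of all genes fell at Day7 over Day1, 8 of 26 replication genes fell. Their median log2 fold change was 0.29 for Day7 over Day1, -1.32 when scaled to all reads, and their summed value was 277 to 953 at Day7, against 99.8 to 189 at Day1. Of 12 mitosis genes tested, Plk1, a mitotic kinase, rose at Day7 over Day1 by 3.16 on the log2 scale (limma adjusted p = 0.0453), and 0 mitosis genes were called with median-of-ratios scaling or when scaled to reads outside haemoglobin. The mitosis sum was 26.8, 161, 3247 and 751 at Day7, so 1 library held most of it. Of 17 erythroid markers tested, 4 rose and 0 fell between Day1 and Day7 (Spna1, Spnb1, Gata1 and Trim58), and 1 rose when scaled to all reads. Erythroid markers at 0 included Epb4.2 in 4 libraries and Trim58 in 4, none of them at Day7. Of 11 mesenchymal markers tested, 5 fell and 0 rose at Day7 over Day1, namely Col1a2, Col1a1, Mfap5, Clec3b and Pdpn, and 10 of 12 fell when scaled to all reads. The mesenchymal sum spanned 13.3 to 1685 in 6h libraries, 365 to 2264 in Day1 libraries and 19.7 to 664 in Day7 libraries. Of 5 neutrophil markers tested, S100a8 rose at Day7 over Day1, and 0 were called with median-of-ratios scaling, scaled to all reads or scaled to reads outside haemoglobin. Of 9 T cell, 9 B cell and 8 monocyte and macrophage markers tested, 0 were called in any comparison. When scaled to all reads, 2 monocyte and macrophage markers rose at Day1 over 6h and 2 fell at Day7 over Day1. Of all genes, 10.7% and 35.1% did so. Pdgfra, a defining marker of mesenchymal progenitors, had no read in 7 of 12 libraries.

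Genes that make, carry or degrade histone messages and proteins were mostly low. Of 12 tested genes of histone transcription and 3′ processing, 0 were called in any comparison, and of 6 tested genes of histone message decay, 0 were called. On the scale of all reads, 6 of 13 and 3 of 5 fell at Day7 over Day1, and 35.1% of all genes did. Slbp, which binds the stem-loop, was 3.06 to 54.9 at Day7, against 0 to 14.5 at Day1, with a log2 fold change of 1.32 (limma adjusted p = 0.407). Of 15 histone chaperones tested, 1 fell and 0 rose at Day7 over Day1, and 5 fell when scaled to all reads. That gene, Nasp, a carrier of H3 with H4 and of linker histones, was 1.65, 0.383, 0 and 1.33 at Day7, against 8.40, 9.67, 14.2 and 6.38 at Day1. Its log2 fold change was -2.59 (limma adjusted p = 0.0489), and the groups did not overlap.

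Replacement histones are made throughout the cell cycle from single genes with poly(A) tails. Of 10 tested, 0 were called in any comparison. Scaled to all reads, 3 of 11 fell at Day7 over Day1, and 35.1% of all genes did. H2afj averaged 698 ± 634 at Day7 and 113 ± 6.98 at Day1, with 1519 in Day7 replicate 3. H2afx, which marks DNA breaks when phosphorylated and also gives a stem-loop message, was 47.8, 58.4, 48.1 and 58.2 at Day7, against 14.5, 22.3, 19.5 and 21.8 at Day1. Its log2 fold change was 1.41 (limma adjusted p = 0.208). H3f3b, which encodes H3.3, averaged 412 ± 251 at Day7 and 433 ± 251 at Day1. Per kilobase, the mean over 12 libraries was 86.9 for H3f3b and 3.53 for Hist1h3d, the highest clustered H3 gene.

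How well reads could be assigned differed among members. The share of 50-base windows of the GENCODE transcripts found in no other gene had a median of 70.2% in the 28 members tested (10.2% to 100%). It was 34.7% in the 36 others with reads (2.68% to 100%) and 0% in the 7 rows with none (0% to 11.3%). Of 35 rows with at least 50% of windows unique, 22 were tested, and of 36 rows below that, 6 were. The share was 91.5% for Hist1h1c, 69.4% for Hist1h2bc, 85.9% for Hist1h2ac, 71.1% for Hist1h4i and 54.2% for Hist1h4h. Members with coding sequence numbered 66 and encode 30 distinct proteins, and 44 of them share 8 proteins. How reads that match several copies were counted is not given in the sources used here, so low values of near-identical copies are uncertain.

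**Figure D5:**
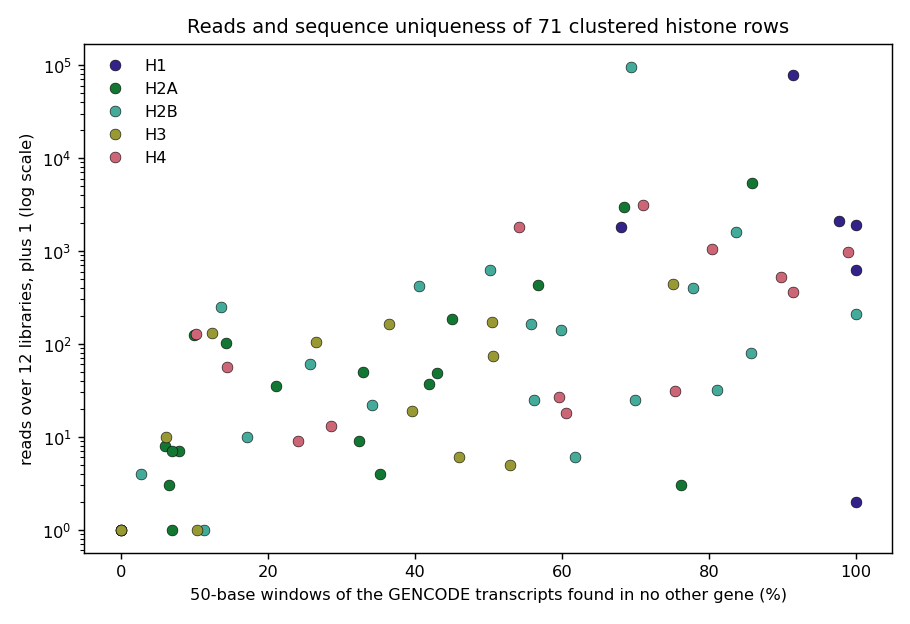
Reads over all 12 libraries plus 1 (log axis) of each of the 71 rows against the percentage of 50-base windows of its transcripts found in no other gene, coloured by histone type. Rows with no read sit at the lower left, at 0% to 11.3%, and Hist1h2bc and Hist1h1c stand at the top at 69.4% and 91.5%.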

How the data were processed

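The authors deposited 1 table with a scaled signal per gene and library, and per the submitters' processing notes STAR 2.7.10, HTSeq 2.0.1 and build mm9 were used. Scaling and annotation: not given in the sources used here. Each deposited value was a whole multiple of that library's value for 1 read (100% of values, tolerance 0.01 reads), which gave back whole reads. TMM factors recomputed from those reads gave the same fold changes and calls as the deposited scale. Fits used limma 3.58.1 in R 4.3.3 on log2(value + 1) with a trended variance, all 12 libraries and time as factor, after a filter of at least 1 in at least 4 libraries. P-values were adjusted by Benjamini-Hochberg over 11211 genes at 0.05. Fold changes on this scale understate changes of low genes. edgeR 4.0.16 and DESeq2 1.42.0 on the whole reads were alternatives, as were other pseudocounts, filters, scalings, a term for Y-linked reads, a replicate block and leaving out libraries. The limma fit was tested on simulated data. Named members were those called, the 4 highest per type and those with reads in every library. Genes of other lists are named only where a result turns on them, fewer than the rule allows, and a few members were added after their values were seen. Members and lists were chosen with earlier results of these data known. Stem-loops, proteins and 50-base windows came from GENCODE M21 (59 rows matched by identifier, 12 by symbol) and promoters from RefSeq, both on GRCm38, another build than the table's. Symbols of Hist2h2aa1 and Hist2h2aa2 are exchanged in GENCODE. Figures were drawn with matplotlib 3.10.9. Intervals and floors cover counting error only.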

Additional observations from a re-analysis of the deposited data

Results flagged for a closer look

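Of 102 groups of 4 libraries examined, 18 held a library whose distance to its nearest neighbour exceeded Dixon's 95% critical share of the range of the group. Chance gives such a library in about 1 in 20 groups only for independent, normally distributed values. The values here were untransformed, came from the same 12 libraries for every gene, and included sums that contain the single members. The count of 18 is therefore no test for more outliers than chance. In 6h replicate 4 the values standing apart from the other 6h libraries were Hist1h2bc at 1524 (others 96.6 to 256), Hist1h2ac at 120.3 (3.03 to 18.3), Hist1h4i at 59.4 (0 to 4.83), Hist1h4h at 22.4 (0.757 to 2.41), summed H2B at 1565 (106 to 298) and summed H4 at 105.1 (9.85 to 24.5). That library also had the largest read total, and its platelet marker sum lay beside Day7. The part of either in these values was not tested.

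In 6h replicate 1 they were Hist1h1b at 59.2 (others 3.62 to 5.16), Hist1h4d at 3.17 (0 to 0.300) and Hist1h2an at 4.48 (0 to 0.724). In Day1 replicate 4 they were Hist1h4d at 8.64 (3.95 to 4.17) and Hist2h2ac at 3.54 (0.834 to 0.989). In Day7 replicate 3, where 7635 genes had a read, they were Hist3h2ba at 62.3 (0.206 to 6.98) and Hist1h2bj at 16.7 (1.10 to 2.66). In Day7 replicate 4 they were Hist1h1b at 66.8 (0 to 4.40), Hist1h4d at 17.3 (0.413 to 0.957), Hist1h1a at 3.33 (0.191 to 0.617), Hist4h4 at 2.00 (0 to 0.138) and Hist1h2bp at 9.98 (0 to 1.23).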

How the results depend on the processing

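Scaling had the widest effect on the member counts. With reads scaled to all reads of a library, members called numbered 5 of 32 for Day1 over 6h (all higher, 15.6%, against 10.7% of all genes), 12 for Day7 over Day1 (all lower, 37.5%, against 35.1%) and 10 for any time (31.2%, against 25.9%). Scaled to reads outside haemoglobin, they were 1 of 30 (higher, 3.33%, against 4.2%), 11 (all lower, 36.7%, against 33.4%) and 6 (20%, against 23.8%), so these shares lie near the background. Under these scalings all genes had a median log2 fold change of 1.57 and 1.22 for Day1 over 6h and of -1.77 and -1.60 for Day7 over Day1, where members had -1.41 and -1.17. For Day7 over Day1, where 1 member was called, the count was 0 with a pseudocount of 4, with no filter, with edgeR and with Y-linked reads as a covariate, 3 with DESeq2 and 6 with the 2 groups fitted alone. At an unadjusted p under 0.05 edgeR gave 6. For Day7 over 6h the Y-linked covariate gave 2. For any time, a mean of at least 10 gave 1 and DESeq2 gave 2. Leaving out each library gave 0 to 0 members for Day1 over 6h, 0 to 4 for Day7 over Day1, 0 to 5 for Day7 over 6h and 0 to 5 for any time. The highest counts came without 6h replicate 4. For these counts by pseudocount, filter, method, covariate and left-out library, the share of all genes called is not given here. They describe the members only and are no result particular to histones. For Day7 over Day1 the count was 0 without any single Day1 library and without Day7 replicate 2, 3 or 4. Of 446 alternative values for 18 single-member differences, 403 kept direction and side of the threshold, 29 newly passed, 13 no longer passed and 1 turned round, which was Hist1h2ac for Day7 over Day1 at -0.0024. All 13 losses belong to Hist1h1c for Day7 over Day1, the only difference that had passed and so the only one that could stop passing. For the other differences, keeping the side of the threshold meant still not passing, so the 403 do not measure how firm that call is. The cause of these changes was not tested. With the replicate number as a block the counts were 0, 1, 0 and 0, as without it. The numbers did not pair the libraries, since deviations of same-numbered libraries correlated at -0.231 to 0.125. Summing copies with the same protein, an alternative chosen after seeing the data that used proteins translated from GENCODE in place of a protein table, gave 0, 1, 0 and 0. Few reads limit the members under the filter, which had at most 140 over all libraries. With the deposited scaling, 1 read is worth 0.0314 to 0.617, so the filter asks for more reads in some libraries than in others.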
